A study of Homo sapiens with 6 samples.

Results

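NFE2L2, the gene of the transcription factor NRF2, its repressor KEAP1 and 7 enzyme genes known as NRF2 targets (HMOX1, NQO1, GCLC, GCLM, TXNRD1, SRXN1 and ME1) were followed in AGS cells after silencing of CTNNB1, the gene of beta-catenin. The 9 genes were chosen by symbol, and each was measured by 1 transcript cluster among the 18417 genes of the array with a cluster of their own. AGS is an established human gastric adenocarcinoma line. One group received siRNA against CTNNB1 (Dharmacon) and the other a non-targeting control siRNA, and RNA was taken 48 hours after transfection. Each group held 3 arrays (Affymetrix Human Gene 1.0 ST). No other genotype or agent is given in the labels, and neither is the sequence of the siRNAs or the number of them in the reagent, so off-target effects cannot be told apart from effects of CTNNB1.

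NRF2 is made continuously and, in unstressed cells, bound by KEAP1, which presents it to the CUL3 ubiquitin ligase for degradation. Electrophiles and oxidants modify cysteines of KEAP1, NRF2 then accumulates, pairs with small MAF proteins and binds antioxidant response elements in its target genes. HMOX1 is also held down by the heme-binding repressor BACH1 and responds to heme, so it is known to answer to several inputs. Because NRF2 is controlled mainly through protein stability, its own mRNA is a poor reading of its activity, and the array measured no protein.

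The antioxidant response element is read here through its core letters TGACNNNGC, searched on both strands in RefSeq windows (GRCh38.p14) of 250 bases before to 50 bases after each start site. Windows were matched for 8 of the 9 genes, the entry for HMOX1 being missing, and they numbered 11 because NFE2L2, KEAP1 and TXNRD1 each had more than 1 start site. A match lay in 5 of the 11, belonging to KEAP1, GCLM, TXNRD1 and ME1, and 13.3% of the 35116 windows of the same length in the table held one. The stretches are shown because they carry the letters by which NRF2 is known to read its targets. Capitals mark the match, each sequence runs 5′ to 3′ on the strand of its gene, and a match on the opposite strand appears as its reverse complement.
KEAP1, chr19:10502774-10502845, minus strand: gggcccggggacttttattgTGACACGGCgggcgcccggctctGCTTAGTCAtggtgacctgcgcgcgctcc
GCLM, chr1:93909436-93909484, minus strand: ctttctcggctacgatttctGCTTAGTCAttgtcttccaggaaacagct
TXNRD1, first window, chr12:104215660-104215708, plus strand: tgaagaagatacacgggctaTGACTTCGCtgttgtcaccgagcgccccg
TXNRD1, second window, chr12:104286910-104286958, plus strand: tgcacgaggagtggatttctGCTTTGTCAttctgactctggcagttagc
ME1, chr6:83431160-83431208, minus strand: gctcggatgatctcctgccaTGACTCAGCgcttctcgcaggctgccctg
The match of GCLM began 34 bases before the start site and the second match of KEAP1 31 bases before it, and both hold the same 9 letters, GCTTAGTCA. TXNRD1 and ME1 each had 1 further match, GCTCCGTCA and GCACCGTCA. No match lay in these windows of NFE2L2, NQO1, GCLC or SRXN1, which says only that the letters are not in the stretch searched.

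CTNNB1 stood at 11.92, 11.76 and 11.75 (log2 expression, replicates 1 to 3) with control siRNA and at 10.27, 10.78 and 10.58 with CTNNB1 siRNA, 0.416 of the control level, so the target matched the labels on all 6 arrays, although its limma adjusted p was 0.232. CTNNB1 siRNA replicate 1 stood apart: its Pearson r with the other arrays, across all clusters, was 0.962 to 0.965, against 0.983 to 0.988 among the other pairs. Markers of the labelled cell type were present, with an array mean of 9.56 to 9.67 over 8 epithelial genes in control cells and 9.82 to 10.2 after CTNNB1 siRNA. Of 16 measured markers of leukocytes, fibroblasts and endothelial cells, 14 were dim, that is, with a mean log2 level under 5.36, below which 40% of the tested clusters lie. The exceptions were CD68 and COL1A1, which was 6.41, 6.70 and 6.59 in control cells and 7.12, 6.71 and 6.94 after CTNNB1 siRNA. In a bulk sample, fewer cells that use a gene and less RNA per cell cannot be told apart.

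HMOX1 was the member with the largest difference, 1.94-fold higher after CTNNB1 siRNA, and none of the 9 genes passed the test over all clusters. For HMOX1 and TXNRD1 the lowest silenced array lay above the highest control, while the other 7 genes overlapped between the groups. The difference of HMOX1 was as large without CTNNB1 siRNA replicate 1, whereas those of TXNRD1 and GCLM rested mostly on that array. In limma 0 of 9 members had an adjusted p under 0.05, where 0.00514% of the 19460 clusters did, and 1 of 9, HMOX1, had an unadjusted p under 0.05, where 5.64% did. Of the 9, 6 were higher and 3 lower, with a median log2 difference of 0.13, beside -0.0052 over all 18417 genes. Groups did not overlap for 2 of 9 members, both higher, against 13.8% of all genes in either direction.

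**Figure D1:**
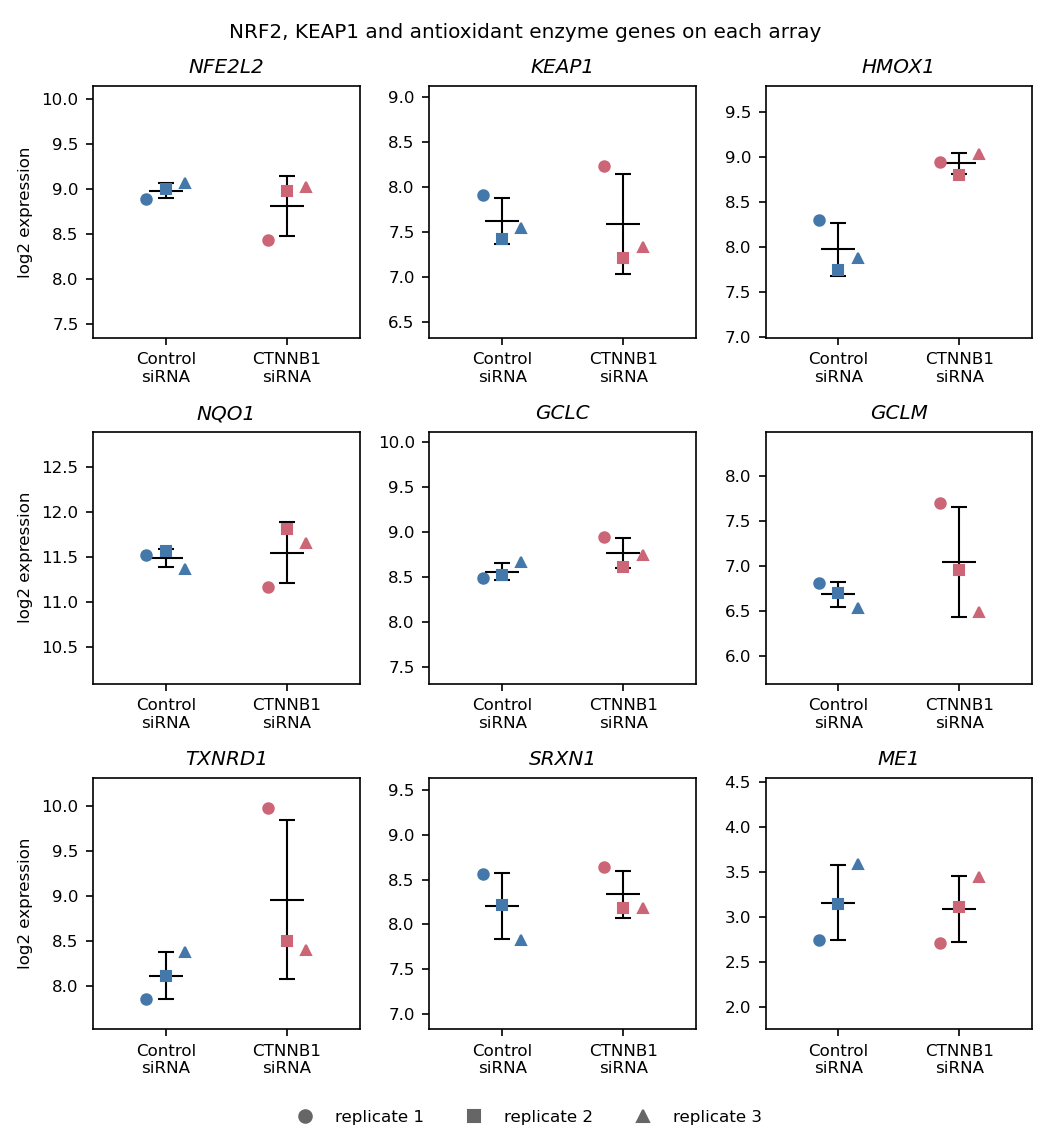
Log2 expression of each of the 9 genes on the 6 arrays, with control siRNA in blue and CTNNB1 siRNA in red. Symbols give the replicate, bars the mean ± SD (n = 3), and every panel spans the same number of log2 units; HMOX1 is higher on all 3 CTNNB1 siRNA arrays (8.80 to 9.04) than on the controls (7.74 to 8.30), and TXNRD1 and GCLM show replicate 1 of CTNNB1 siRNA far above the others.

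NFE2L2 encodes NRF2 itself. Its log2 expression was 8.89, 9.001 and 9.06 in control cells (replicates 1 to 3, the order used throughout) and 8.43, 8.98 and 9.03 after CTNNB1 siRNA. The groups overlapped, and the low value of replicate 1 set the difference of -0.17 (SE 0.19; limma, adjusted p = 0.846), which was 0.020 without that array. On the other 2 CTNNB1 siRNA arrays NFE2L2 lay within the range of the controls.

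KEAP1, the cysteine-rich sensor that hands NRF2 to the ubiquitin ligase, was 7.91, 7.43 and 7.54 in control cells and 8.23, 7.22 and 7.33 after CTNNB1 siRNA. Replicate 1 of CTNNB1 siRNA was the highest of the 6 arrays and the other 2 were the lowest, so the mean difference of -0.033 (SE 0.28; adjusted p = 0.983) hides values on both sides of the controls. Without replicate 1 the difference was -0.35 (SE 0.17; adjusted p = 0.700), and the groups then did not overlap. Leaving out any 1 array gave -0.35 to 0.16, so no direction can be given for KEAP1.

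HMOX1 encodes heme oxygenase 1, the inducible enzyme that opens the heme ring and releases biliverdin, carbon monoxide and iron. Its log2 expression was 8.30, 7.74 and 7.88 in control cells and 8.95, 8.80 and 9.04 after CTNNB1 siRNA. All 3 silenced arrays lay above all 3 controls, and the spread among them was smaller (SD 0.12) than among the controls (SD 0.29). The means were 7.97 ± 0.29 (SD, n = 3) and 8.93 ± 0.12 (SD, n = 3), a log2 difference of 0.96 (SE 0.18, 95% interval 0.54 to 1.37) or 1.94-fold (1.46 to 2.58).

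In limma this difference had an unadjusted p of 0.000705, the 21st smallest among 19460 clusters, and an adjusted p of 0.626, so HMOX1 did not pass. The adjusted p ran from 0.0644 with arrays weighted by quality to 0.926 without control siRNA replicate 3. The difference itself was 0.95 without CTNNB1 siRNA replicate 1 and stayed between 0.84 and 1.12 whichever array was left out. A difference at least this large was found for 51 of the 18417 genes (0.277%), HMOX1 included. The exact 2-sided permutation p of HMOX1 was 0.1, the smallest that 3 arrays against 3 can give.

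The 3 genes whose centred values over the 6 arrays came closest to those of HMOX1, by root mean square difference among 9257 other genes at or above the median level, were ASS1, PTGES and DDX60L. ASS1, an enzyme of arginine synthesis, lay 0.17 log2 units from HMOX1 by this measure and differed by 0.77 (SE 0.14) between the groups. PTGES, a prostaglandin E synthase, lay 0.20 away and differed by 0.74 (SE 0.13). DDX60L, a helicase gene, lay 0.21 away and differed by 0.79 (SE 0.17). None of the 3 passed in limma (adjusted p = 0.626, 0.626 and 0.766). A gene picked by this measure has a group difference near that of its target by construction, here and for NQO1 below.

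HMOX1 is also abundant in macrophages. Of 5 measured leukocyte markers, PTPRC, CD3E, CD14 and ITGAM were dim on average, with PTPRC, the pan-leukocyte marker, at 2.60 to 2.79 on the 6 arrays. The array mean of the 5 was 4.64 to 4.75 in control cells and 4.66 to 4.96 after CTNNB1 siRNA. CD68, a lysosomal protein gene used as a macrophage marker but not limited to macrophages, was 7.86, 8.07 and 8.09 in control cells and 8.03, 8.74 and 8.85 after CTNNB1 siRNA. Its part in the HMOX1 result was not tested.

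NQO1 encodes the quinone reductase most often used as a readout of NRF2. It stood at 11.53, 11.57 and 11.37 on the control arrays and at 11.17, 11.82 and 11.66 on the CTNNB1 siRNA arrays. CTNNB1 siRNA replicate 1 was the lowest of the 6 arrays and the other 2 were the highest. The log2 difference was 0.058 (SE 0.19, 95% interval -0.38 to 0.50; adjusted p = 0.953), and 0.25 (SE 0.14; adjusted p = 0.729) without replicate 1. The interval over all 6 arrays ends at 1.41-fold, below the 1.94-fold found for HMOX1, while the difference between the 2 genes was not tested. Closest to NQO1 by the same measure were RIGI, a sensor of viral RNA (0.032 log2 units), GINM1 (0.046) and RREB1, a zinc finger transcription factor gene (0.049), with differences of 0.096, 0.038 and 0.058 between the groups (adjusted p in limma 0.919 to 0.971).

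**Figure D2:**
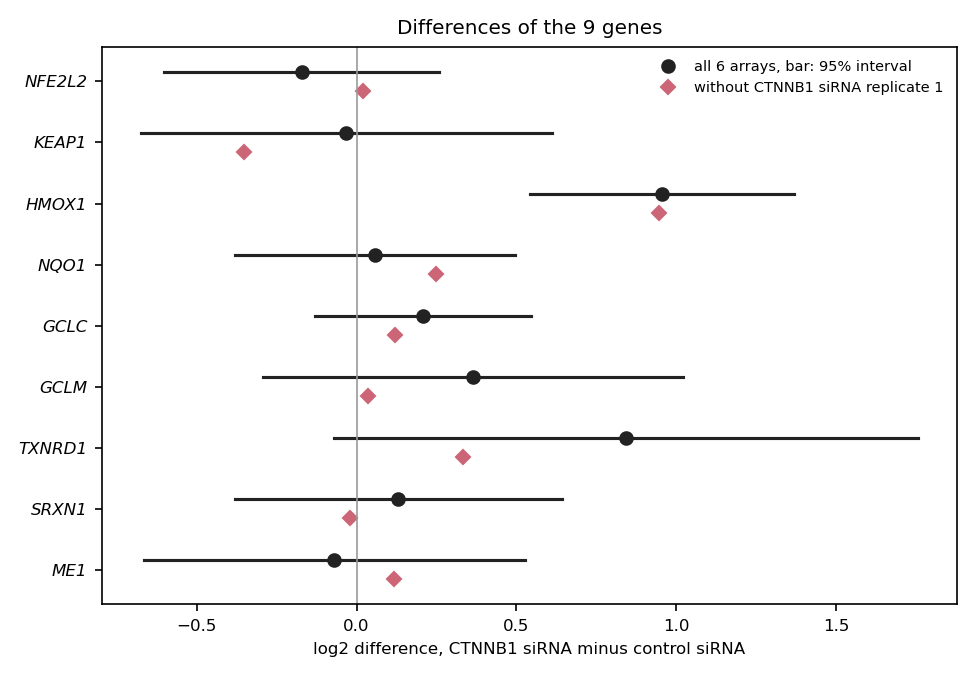
Log2 difference, CTNNB1 siRNA minus control siRNA, of the 9 genes. Black points and bars are the limma estimate and its 95% interval over all 6 arrays, and red diamonds the estimate without CTNNB1 siRNA replicate 1; the interval of HMOX1 (0.54 to 1.37) lies above 0, and TXNRD1 moves from 0.84 to 0.33 and GCLM from 0.36 to 0.037 without that array.

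GCLC and GCLM encode the catalytic and the modifier subunit of glutamate-cysteine ligase, which makes the first bond of glutathione. GCLC was 8.49, 8.53 and 8.67 in control cells and 8.95, 8.61 and 8.75 after CTNNB1 siRNA, so that the group means differed by 0.21 log2 (SE 0.15; adjusted p = 0.816). The groups overlapped through 1 pair of arrays only, control siRNA replicate 3 and CTNNB1 siRNA replicate 2. The difference was 0.12 without CTNNB1 siRNA replicate 1.

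GCLM was 6.81, 6.70 and 6.53 in control cells and 7.69, 6.95 and 6.48 after CTNNB1 siRNA. The silenced arrays held the highest, the next highest and the lowest value of the 6. Its log2 difference of 0.36 (SE 0.28; adjusted p = 0.816) was 0.037 without CTNNB1 siRNA replicate 1 and 0.64 without replicate 3. Both subunits of the enzyme were highest on replicate 1 of CTNNB1 siRNA.

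TXNRD1 encodes the cytosolic selenoenzyme that reduces thioredoxin with NADPH. It was 7.86, 8.11 and 8.37 in control cells and 9.97, 8.49 and 8.40 after CTNNB1 siRNA. The groups did not overlap, but replicates 2 and 3 of CTNNB1 siRNA lay next to the highest control, and replicate 1 stood 1.53 above their mean. The log2 difference was 0.84 (SE 0.40, 95% interval -0.072 to 1.76; adjusted p = 0.816), or 1.79-fold, and 0.33 (SE 0.17; adjusted p = 0.714), or 1.26-fold, without replicate 1.

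SRXN1, sulfiredoxin, which repairs over-oxidised peroxiredoxins, was 8.56, 8.22 and 7.83 in control cells and 8.64, 8.18 and 8.19 after CTNNB1 siRNA. The control arrays spanned nearly the whole range of the 6, and the log2 difference was 0.13 (SE 0.22; adjusted p = 0.904), or -0.020 without CTNNB1 siRNA replicate 1. Over the fits without 1 array it lay between -0.057 and 0.31, so its direction was not settled. ME1, the cytosolic malic enzyme that supplies NADPH, was dim, at 2.75, 3.14 and 3.59 in control cells and 2.72, 3.11 and 3.44 after CTNNB1 siRNA. Differences of dim clusters are compressed in these values, and -0.069 (SE 0.26; adjusted p = 0.958) does not show that ME1 was unchanged.

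Across the 9 genes, CTNNB1 siRNA replicate 1 was the highest or the lowest of the 6 arrays for 8, HMOX1 being the exception. It took that place for 56.0% of all genes. For KEAP1, GCLC, GCLM, TXNRD1 and SRXN1 it was the highest array, and for NFE2L2, NQO1 and ME1 the lowest. The part of that array's overall deviation in these values was not tested. Without it, 4 of 9 members did not overlap between the groups (HMOX1, TXNRD1 and NQO1 higher, KEAP1 lower), against 25.9% of all genes, and again 0 of 9 passed in limma, where 0.0514% of clusters did, with HMOX1 at an adjusted p of 0.282. At an unadjusted p under 0.05 HMOX1 was again the 1 of 9, beside 7.34% of clusters.

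The other genes of the pathway were described from 8 lists holding 110 genes, of which 100 were measured by a cluster of their own. Of the 100, 64 were higher and 36 lower, with a median log2 difference of 0.11, beside 49.1% higher over all genes. Without CTNNB1 siRNA replicate 1, 54 were higher and 46 lower, and the median was 0.018. In limma 1 of 100 passed, AKR1B10, on the higher side, and 0 on the lower. AKR1B10 was also the only 1 of all 19460 clusters to pass (0.00514%). The lists were chosen with earlier results of these data known, so this share is no test of the lists. An unadjusted p under 0.05 was reached by 12 on the higher side and by 1 on the lower, beside 3.04% and 2.6% of clusters. Groups did not overlap for 16 that were higher and 7 that were lower, where 6.86% and 6.89% of genes were.

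**Figure D3:**
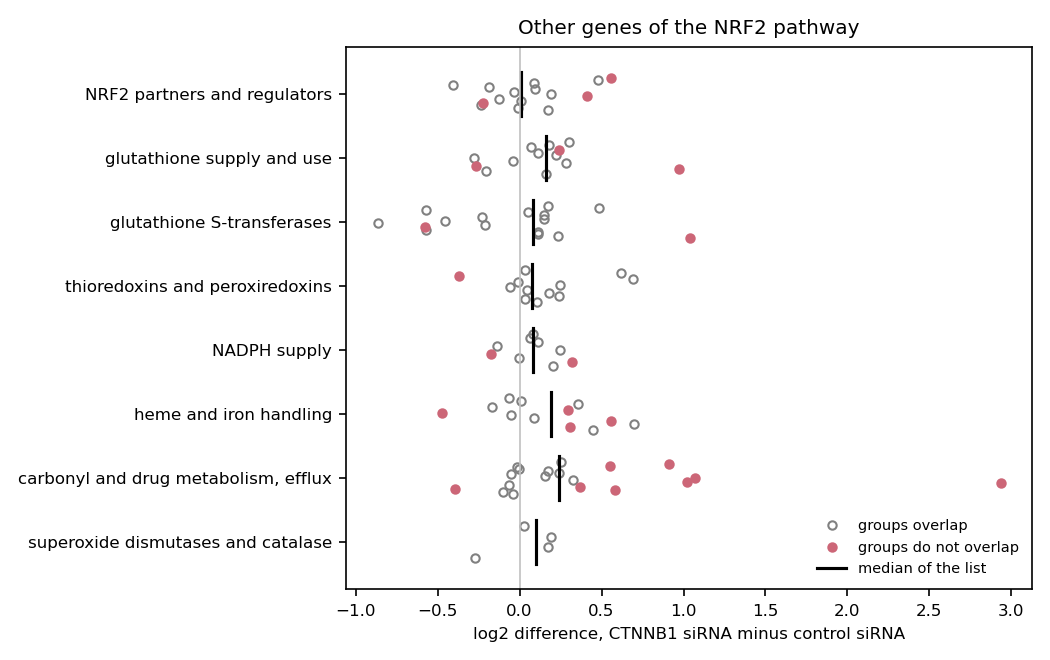
Log2 difference, CTNNB1 siRNA minus control siRNA, of the 100 measured genes in the 8 lists, 1 point per gene. Filled red points are genes whose groups do not overlap and black lines are list medians; the medians run from 0.0063 to 0.24, and AKR1B10, at 2.94, is the point far to the right.

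HMOX1 works within a short chain of heme and iron genes. Of 12 measured genes of heme and iron handling, 8 were higher and 4 lower, with a median of 0.19, and 0.044 without CTNNB1 siRNA replicate 1. None passed in limma, and 2 had an unadjusted p under 0.05, both higher, BLVRB and FTL, beside 3.04% of clusters on that side. Groups did not overlap for 3 genes on the higher side, BLVRB, FTL and ALAS1, and for 1 on the lower, FLVCR1, beside 6.86% and 6.89% of all genes.

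BLVRB is a biliverdin and flavin reductase. It was 8.40, 8.28 and 8.29 in control cells and 9.05, 8.75 and 8.85 after CTNNB1 siRNA, so that the group means differed by 0.56 log2 (SE 0.14) or 1.47-fold (95% interval 1.18 to 1.85; adjusted p = 0.816). The groups were apart, and the difference was 0.48 without CTNNB1 siRNA replicate 1. FTL, the ferritin light chain that helps store iron, was 11.90, 11.95 and 11.96 in control cells and 12.24, 12.21 and 12.25 after CTNNB1 siRNA, a difference of 0.30 (SE 0.12; adjusted p = 0.816) that left-out arrays moved only between 0.28 and 0.31. Ferritin has many processed copies in the genome, so probes of FTL may also read near-identical sequences.

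ALAS1, the rate-limiting enzyme of heme synthesis, was 8.69, 8.66 and 8.83 in control cells and 9.06, 8.84 and 9.21 after CTNNB1 siRNA, a difference of 0.31 (SE 0.15). FLVCR1, a heme exporter gene, was 9.54, 9.13 and 9.08 in control cells and 8.36, 9.01 and 8.96 after CTNNB1 siRNA, a difference of -0.48 (SE 0.22) that was -0.27 without replicate 1. The iron exporter SLC40A1 overlapped between the groups, with a difference of 0.36 (SE 0.22), or 0.19 without CTNNB1 siRNA replicate 1 and 0.18 without control siRNA replicate 1. BLVRA, the main biliverdin reductase, named here after its values were seen, was 6.67, 6.80 and 7.08 in control cells and 8.91, 6.97 and 6.78 after CTNNB1 siRNA. Its difference of 0.70 (SE 0.51) came from replicate 1 alone and was 0.021 without it. HMOX2, the constitutive heme oxygenase, was also named after its values were seen and differed by -0.17 (SE 0.20), or by 0.052 without control siRNA replicate 1, with overlapping groups.

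**Figure D4:**
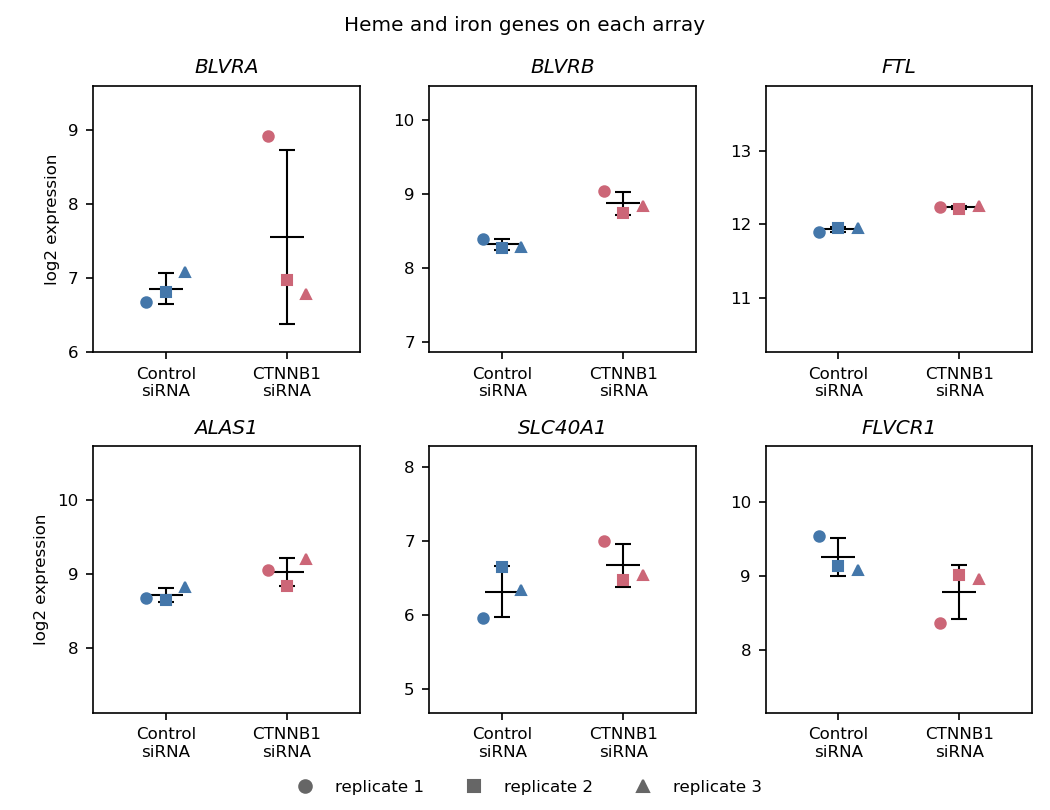
Log2 expression of 6 heme and iron genes on the 6 arrays, with control siRNA in blue, CTNNB1 siRNA in red, symbols for the replicate and bars for the mean ± SD (n = 3). BLVRB, FTL and ALAS1 are higher on all 3 CTNNB1 siRNA arrays than on any control, and the mean of BLVRA is raised by replicate 1 (8.91) alone.

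Partners and regulators of NRF2 had a median of 0.0063 over 15 measured genes, 8 higher and 7 lower. Of these, 0 passed in limma, and 1 had an unadjusted p under 0.05, where 5.64% of clusters did. That gene was TRIM16, a ubiquitin ligase gene reported to act in the NRF2 response. It was 9.49, 9.16 and 9.39 in control cells and 9.94, 9.85 and 9.94 after CTNNB1 siRNA, so that the group means differed by 0.56 log2 (SE 0.14; adjusted p = 0.816) that was 0.54 without CTNNB1 siRNA replicate 1. The groups were apart, and the 3 silenced arrays lay close together. TRIM16 has a closely similar copy, TRIM16L, so its probes may read both.

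BACH1, the repressor of HMOX1, was 6.76, 7.19 and 7.21 in control cells and 7.02, 7.41 and 7.24 after CTNNB1 siRNA, with overlapping groups and a difference of 0.17 (SE 0.18). The small MAF genes bind beside NRF2: MAFF differed by 0.41 (SE 0.19), with groups apart on the higher side, and MAFG by 0.19 (SE 0.19), with overlap. BACH1, MAFF and MAFG were all lowest on control siRNA replicate 1, and without it they differed by 0.027, 0.25 and 0.030. The other 2 clusters of MAFG gave 0.10 and 0.22. CUL3, the ligase scaffold used by KEAP1, differed by -0.22 (SE 0.14; -0.13 without CTNNB1 siRNA replicate 1), with groups apart on the lower side. SQSTM1, the p62 autophagy adaptor that competes for KEAP1, differed by 0.48 (SE 0.24) and NFE2L1, a relative of NRF2, by 0.094 (SE 0.15), or by 0.25 and -0.013 without that array. PALB2, a further gene of this list, differed by -0.41 (SE 0.25), or by -0.13 without CTNNB1 siRNA replicate 1, with overlapping groups. None of these genes passed in limma (adjusted p = 0.816 to 0.894).

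The list of carbonyl and drug metabolism and efflux had a median of 0.24 over 19 measured genes, with 12 higher and 7 lower. Its median was 0.25 without CTNNB1 siRNA replicate 1 and 0.21 without CTNNB1 siRNA replicate 2. AKR1B10, an aldo-keto reductase and a known NRF2 target in human cells, rose from 3.91, 4.20 and 3.34 to 6.81, 6.48 and 6.96, a log2 difference of 2.94 (SE 0.24; limma, adjusted p = 0.0372). It was dim, so its fold is uncertain. Its call was kept without CTNNB1 siRNA replicate 1 (adjusted p = 0.0138) and lost without any 1 of the other arrays: without control siRNA replicates 1, 2 and 3 it was 0.550, 0.127 and 0.125, and without CTNNB1 siRNA replicates 2 and 3 it was 0.114 and 0.218. Centring the arrays on the median (0.0551) or testing all clusters (0.279) also ended the call.

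Of the 19 genes, 7 had groups apart on the higher side and 1 on the lower, beside 6.86% and 6.89% of all genes. An unadjusted p under 0.05 was reached by 7 on the higher side and 0 on the lower, beside 3.04% and 2.6% of clusters. The gene apart on the lower side, ABCC4, an efflux pump gene named after its values were seen, differed by -0.39 (SE 0.18; -0.25 without CTNNB1 siRNA replicate 1). AKR1C1 differed by 1.02 (SE 0.36; 0.56 without CTNNB1 siRNA replicate 1), AKR1C3 by 1.07 (SE 0.30) and AKR1C2 by 0.32 (SE 0.27; 0.077 without CTNNB1 siRNA replicate 3). All 3 were dim, and they are so alike in sequence that their probes may not separate them; the second cluster of AKR1C1 gave 0.40. OSGIN1, an oxidative stress growth inhibitor gene, differed by 0.55 (SE 0.17), or by 0.40 without CTNNB1 siRNA replicate 1. The efflux pump gene ABCC5 differed by 0.37 (SE 0.13), or by 0.36 without that array. PTGR1, an NADPH-dependent reductase gene, differed by 0.91 (SE 0.34), or by 0.46 without that array. The bile and drug exporter ABCC2 was dim and differed by -0.10 (SE 0.16). Apart from AKR1B10, 0 of the genes in this list passed in limma.

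Genes of glutathione supply and use had a median of 0.16 over 13 measured genes, 9 higher and 4 lower, and 0.016 without CTNNB1 siRNA replicate 1. Here 0 passed in limma, and 1 had an unadjusted p under 0.05, where 5.64% of clusters did. That gene was GLRX, glutaredoxin, which reverses glutathionylation of proteins. It was 6.43, 7.46 and 7.05 in control cells and 7.98, 8.15 and 7.72 after CTNNB1 siRNA, a difference of 0.97 (SE 0.26; adjusted p = 0.816), or 0.96 without CTNNB1 siRNA replicate 1. Without control siRNA replicate 1, the lowest of the 6 arrays, the difference of GLRX was 0.70. The groups were apart. Its mitochondrial relative GLRX2 differed by -0.26 (SE 0.14), also with groups apart, on the lower side.

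SLC7A11, the cystine importer that feeds glutathione synthesis, was 8.04, 10.15 and 10.89 in control cells and 9.87, 9.72 and 10.40 after CTNNB1 siRNA. Control siRNA replicate 1 was far below the other 5 arrays, the difference was 0.30 (SE 0.63) over all of them, and it was -0.53 without that replicate. TXNIP, the thioredoxin-binding protein, was likewise low on control siRNA replicate 1 (8.53, against 10.36 to 10.84 on the other arrays), and its difference was 0.62 (SE 0.53), or -0.088 without that replicate. SLC3A2, the heavy chain of the importer, differed by 0.18 (SE 0.30), glutathione synthetase GSS by 0.070 (SE 0.17), glutathione reductase GSR by 0.24 (SE 0.15) and the gut glutathione peroxidase GPX2 by -0.041 (SE 0.17). Without CTNNB1 siRNA replicate 1 the values were -0.19 for SLC3A2, -0.096 for GSS, 0.12 for GSR and 0.12 for GPX2, so that SLC3A2, GSS and GPX2 changed direction. GSR was the 1 of these 4 whose groups did not overlap.

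Glutathione S-transferases, which conjugate electrophiles to glutathione, had values in both directions, with 9 of 16 measured genes higher, 7 lower and a median of 0.081, or -0.066 without CTNNB1 siRNA replicate 1. In limma 0 passed, with 1 higher and 1 lower at an unadjusted p under 0.05, beside 3.04% and 2.6% of clusters. GSTA1 was dim and differed by 1.04 (SE 0.29), from 4.69, 3.71 and 4.21 to 5.11, 4.90 and 5.73, with groups apart on the higher side. GSTM2, named after its values were seen, was apart on the lower side and differed by -0.58 (SE 0.31; -0.17 without CTNNB1 siRNA replicate 1). GSTM4 differed by -0.87 (SE 0.38; -0.38 without CTNNB1 siRNA replicate 1) and GSTM5, which was dim, by -0.46 (SE 0.19; -0.28 without that array). The GSTA and GSTM genes are near-identical families whose probes may be shared, so these values are uncertain.

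Thioredoxins and peroxiredoxins had a median of 0.075 over 12 measured genes and 0.00071 without CTNNB1 siRNA replicate 1. Among them 0 passed in limma and 0 had an unadjusted p under 0.05, where 5.64% of clusters did. TXN, thioredoxin, the substrate of TXNRD1, was 9.41, 9.25 and 9.51 in control cells and 11.23, 9.57 and 9.45 after CTNNB1 siRNA. As for TXNRD1, replicate 1 stood alone, and the difference of 0.69 (SE 0.43) was 0.12 without it. PRDX1, a peroxide-reducing partner of thioredoxin, differed by 0.10 (SE 0.13; 0.048 without replicate 1). TXN2, the mitochondrial thioredoxin, was lower on every CTNNB1 siRNA array, with a difference of -0.37 (SE 0.17; -0.20 without replicate 1).

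Genes of NADPH supply had a median of 0.084 over 9 measured genes and 0.00016 without CTNNB1 siRNA replicate 1. Again 0 passed in limma and 0 had an unadjusted p under 0.05, where 5.64% of clusters did. Of the pentose phosphate enzymes, PGD differed by -0.14 (SE 0.19; 0.018 without control siRNA replicate 1), TKT by 0.084 (SE 0.15) and TALDO1 by 0.061 (SE 0.13), each with overlapping groups. IDH2, a mitochondrial NADPH source, differed by 0.32 (SE 0.17; 0.19 without CTNNB1 siRNA replicate 1), with groups apart on the higher side. ME3, a mitochondrial malic enzyme, differed by -0.17 (SE 0.13), with groups apart on the lower side. The superoxide dismutases SOD1 and SOD2 differed by 0.17 (SE 0.36) and 0.19 (SE 0.22) and catalase, CAT, by -0.27 (SE 0.26). Each of these 3 had its extreme value on CTNNB1 siRNA replicate 1, and without it the differences were -0.30, -0.045 and 0.044.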

How the data were processed

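The values, as the authors deposited them, are log2 expression per transcript cluster. The submitters' processing notes name RMA and Affymetrix Expression Console 1.1; settings and annotation: not given in the sources used here. The log2 scale was read from the values. RMA brings arrays to a common distribution and compresses differences of dim clusters. Of 33297 clusters, 19460 had exactly 1 gene symbol in the platform annotation and were tested, with 19429 symbols updated through RefSeq (GRCh38.p14). The brightest cluster on average stood for a gene; each member had 1.

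Groups were compared with limma 3.58.1 in R 4.3.3 (lmFit, eBayes; 2-sided; no block), with Benjamini-Hochberg adjustment over 19460 clusters and a threshold of 0.05. Every SE, 95% interval and adjusted p comes from limma. The fit was tested on simulated data with the same spread on every array, which does not cover the deviation of CTNNB1 siRNA replicate 1. Titles call the 3 arrays per group biological replicates, with no word on separate cultures, so the p-values may measure technical spread only, and the number of arrays limits the precision.

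Members and lists were chosen with earlier results of these data known. Named were the members, a fixed set of pathway genes, up to 3 others per list with the smallest p, and the genes most like HMOX1 and NQO1. Exceptions are marked. Picked by p but not described above were GLO1 (log2 difference -0.21), IDH1 (0.20), SESN2 (0.25) and SOD3 (0.029), each with overlapping groups. Alternatives left out each array, blocked on replicate number, weighted arrays, dropped the dimmest 40%, re-normalized or centred arrays, tested all clusters or used an intensity trend.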

Additional observations from a re-analysis of the deposited data

How the results depend on the processing

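All 9 members stayed on the same side of the threshold under each of the 13 alternatives, except that ME1, being dim, had no value with the dimmest 40% left out, and HMOX1, GCLC, GCLM and TXNRD1 also kept their direction. The number of clusters called was 1 over all arrays, 0 to 10 without 1 array (10 without CTNNB1 siRNA replicate 1), 13 with array weights, and 0 with the replicate block, the dimmest 40% left out, arrays centred on the median or all clusters tested; these counts of 0 came with 670 to 1569 clusters at an unadjusted p under 0.05. Directions changed for KEAP1 after quantile normalization (0.0018), and without 1 array for 5 genes: NFE2L2 ranged from -0.28 to 0.020, KEAP1 from -0.35 to 0.16, NQO1 from -0.076 to 0.25, SRXN1 from -0.057 to 0.31 and ME1 from -0.27 to 0.14; the cause was not tested. Without CTNNB1 siRNA replicate 1, a setting chosen after seeing the data for this count, groups did not overlap for 4 members in place of 2. For the 100 pathway genes the count was 38 in place of 23, beside 25.9% of all genes in place of 13.8%. Fewer arrays overlap less by construction.

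The replicate numbers were not taken as pairs: same-numbered arrays deviated from their group means with correlations of 0.092, 0.12 and 0.098, though each array correlated best with its own number. With the replicate block HMOX1 kept its difference of 0.96 (SE 0.16, limma adjusted p = 0.743) and AKR1B10 had an adjusted p of 0.363. A mean over several clusters was not run, since every member had 1. With 3 arrays per group the smallest exact permutation p is 0.1.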
